A study of Mus musculus with 9 samples.

Results

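Cells sorted as eosinophils from mice that carry both an mdx allele and an interleukin-5 transgene were compared with cells from mice of each single genotype, to find transcripts that lie outside the range of both. The contrast set the 3 mdx_IL5Tg libraries (S1, S2 and S3) against the average of the IL5Tg mean (S7, S8 and S9) and the mdx mean (S4, S5 and S6), and it uses all 9 libraries of the series in 1 fit. A gene was counted as above both singles only where mdx_IL5Tg was higher than IL5Tg and higher than mdx, each by its own test, with the larger of the 2 p-values adjusted over all genes. The deposited counts list 54146 genes, and 15886 passed the filter on low counts; 49 of these lay above both singles and 0 below both (0.308% and 0% of the genes tested).

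The study profiled RNA of eosinophils taken from quadriceps infiltrates of adult mice, and its title concerns Trem2. The gate kept live CD45+ Siglec-F+ cells that lacked CD11c, Gr1 and class II, and RNA went into a low-input total RNA library kit. By their titles, mdx samples carry the mdx allele (the point mutation of the dystrophin gene used as a model of Duchenne muscular dystrophy), IL5Tg samples carry the transgene, and mdx_IL5Tg samples carry both. The design text calls the 3 replicates of a condition biological, and it does not say whether animals were pooled. A strain field of mdx is attached to every sample, IL5Tg included, which conflicts with the titles, and the groups here follow the titles. The promoter that drives the transgene is not given in the sources used here. The 3 groups include no wild-type mice, so the comparison says whether the combined genotype lies outside both singles and cannot say whether the 2 changes add up or interact.

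Eosinophils are granulocytes that depend on interleukin-5, which signals through JAK2 and STAT5 and prolongs their survival in part through anti-apoptotic members of the BCL2 family. In dystrophic muscle they are part of a mixed infiltrate around degenerating fibres. In low oxygen, the hydroxylases of the EGLN family no longer mark hypoxia-inducible factors for destruction, and those factors raise the transcription of glycolytic enzymes, of the angiogenic growth factor VEGFA and of the EGLN genes themselves; inflammatory signals can engage the same program in myeloid cells.

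Total counts were 43297851 to 58368283 in mdx_IL5Tg, 26752780 to 30824793 in IL5Tg and 29200231 to 41627444 in mdx, so the combined genotype was the most deeply sequenced and its depth did not overlap that of either single. The TMM scaling factors (edgeR) were 0.867 to 0.918 in mdx_IL5Tg and 1.00 to 1.15 in the other 6 libraries. Libraries of a group correlated at 0.975 to 0.994 (Pearson's r across genes), and no pair agreed within sampling noise. Mitochondrially encoded transcripts held 1.3% to 1.67% of counts in mdx_IL5Tg, 1.32% to 2.29% in IL5Tg and 0.383% to 1.55% in mdx. Levels below are CPM, counts scaled to the TMM-adjusted library size, differences are log2 with the standard error of the fit, and n = 3 libraries a group.

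Genes that passed the average contrast lay mostly outside the singles, not between them. The contrast called 1171 genes higher in mdx_IL5Tg (7.37% of those tested) and 531 lower (3.34%; edgeR quasi-likelihood, Benjamini-Hochberg adjusted p under 0.05). Of the 1171 higher genes, 1104 (94.3%) had a mdx_IL5Tg mean above both single means and 67 (5.72%) had it between them. Of the 531 lower genes, 515 (97%) had the mean below both and 16 (3.01%) between. For comparison, over all genes tested the mean lay above both in 27% of genes, below both in 38.1% and between in 34.9%. In 874 of the 1104 higher genes and 317 of the 515 lower ones the 3 mdx_IL5Tg libraries did not overlap the 6 others, an arrangement that held for 8.52% of all genes tested on the higher side and 4.41% on the lower side. These genes were selected by the average contrast, so their positions are a description.

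The distance from the nearer single was often small. Among the 1104 genes with a mean above both, the nearer single was IL5Tg for 794 and mdx for 310, and 661 of them stood less than 0.5 log2 above it. At an adjusted p under 0.05 for the larger of the 2 p-values, 49 genes (0.308%) were above both singles and 0 (0%) below both; at an unadjusted larger p under 0.05 the counts were 961 (6.05%) and 609 (3.83%). DESeq2 called 259 above and 66 below both, and limma voom 64 and 0. With library totals in place of TMM factors the average contrast called 454 genes higher and 1855 lower, so that 19.7% of calls were higher, against 68.8% with TMM. That scaling moved the median log2 difference of all genes from -0.11 to -0.38, and 14 genes were then above both.

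**Figure D1:**
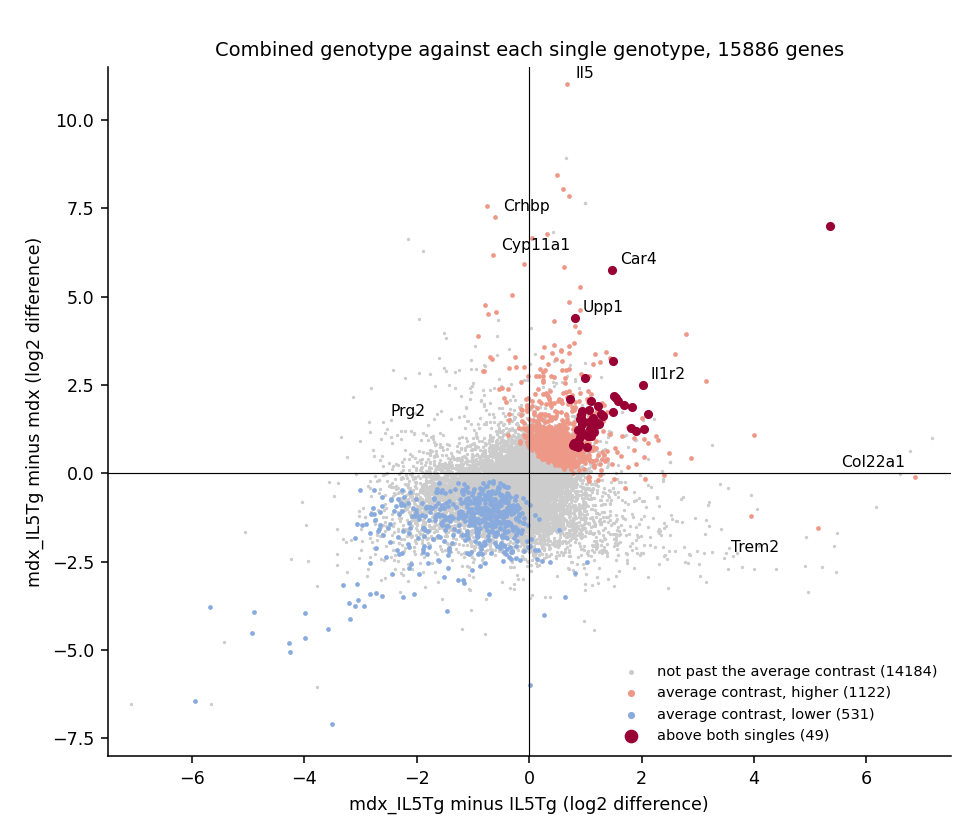
Each point is a gene, placed by its log2 difference between mdx_IL5Tg and IL5Tg (horizontal axis) and between mdx_IL5Tg and mdx (vertical axis); the upper right quadrant holds genes above both singles and the lower left those below both. The 49 genes above both (dark) sit at least 0.73 from each axis, the unlabelled dark point at the far upper right is RP23-103K12.3, and genes between the singles (Col22a1, Crhbp, Cyp11a1, Trem2) lie in the other 2 quadrants.

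In all 49 genes above both singles, the 3 mdx_IL5Tg libraries lay above the 6 others. IL5Tg was the nearer single for 40 of them and mdx for 9, and in 43 the singles lay within 1 log2 of each other. Of the other 6, mdx was the lower single in Car4, Upp1, Bcl2l1, Tmem119 and Lpin1, and RP23-103K12.3 has too few counts in the singles to order them. Leaving aside RP23-103K12.3, described below, the difference from the nearer single was 0.73 to 2.02 log2 (median 1.07), or 1.66-fold to 4.06-fold (median 2.1-fold). The difference from IL5Tg ranged from 0.73 to 2.11 and that from mdx from 0.75 to 5.77. The 49 genes were grouped by role after their values were seen. Of them 9 act in glucose breakdown or its control, and 7 were placed with the response to oxygen. Another 12 encode receptors or other surface and secreted immune proteins, 3 are anti-apoptotic, and 18 have other roles.

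Glycolytic enzymes were higher in the combined genotype. Of 24 genes on the list of glycolysis and the hypoxia response, all tested, 22 were higher than the average of the singles, 0 lower, and 10 passed as above both. The list's median difference was 1.06 from the average, 0.86 from IL5Tg and 1.29 from mdx, beside medians of -0.11, -0.05 and -0.13 over all genes tested. In 21 of the 24 the mdx_IL5Tg libraries lay above the 6 others, against 8.52% of all genes tested. The shares of all genes tested were 7.37% higher, 3.34% lower and 0.308% above both. The higher members run along the pathway: Pfkl, Aldoa, Tpi1, Gapdh, Pgk1, Pgam1, Eno1, Pkm and Ldha each passed the average contrast. The list was written with earlier results of these data known, so its count is no independent support for its direction.

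Tpi1 (chr6:124810586-124814296 in GRCm38, as for all coordinates here), triosephosphate isomerase, was at 587, 499 and 401 CPM in mdx_IL5Tg S1, S2 and S3, 173, 148 and 210.4 in IL5Tg and 132, 172 and 145 in mdx. It was higher than IL5Tg by 1.48 ± 0.19 and than mdx by 1.73 ± 0.19 (edgeR adjusted p = 0.00879 for lying above both). The lowest combined library was S3 and the highest single-genotype library IL5Tg S9, far below it. Pgk1, phosphoglycerate kinase, was at 707, 664 and 499 CPM in mdx_IL5Tg, 267, 246 and 305 in IL5Tg and 199, 268 and 218 in mdx, with differences of 1.19 ± 0.17 and 1.45 ± 0.17 from IL5Tg and mdx (adjusted p = 0.0186). Eno1, enolase, was at 1909, 1636 and 1316 CPM in mdx_IL5Tg, 654, 666 and 825 in IL5Tg and 564, 745 and 587 in mdx, with 1.18 ± 0.18 and 1.36 ± 0.18 (adjusted p = 0.0216). In both genes S3 was the lowest combined library and stood clear of every single-genotype library. Gapdh, glyceraldehyde-3-phosphate dehydrogenase and a common reference gene, was at 2319.9 ± 301 CPM in mdx_IL5Tg, 1215 ± 145 in IL5Tg and 812 ± 45.2 in mdx (SD), 0.93 and 1.51 above the singles (adjusted p = 0.0268). Ldha, which turns pyruvate into lactate, was at 1293, 1201 and 992 CPM in mdx_IL5Tg, 588, 595 and 676 in IL5Tg and 381, 446 and 382 in mdx, 0.91 and 1.53 above them (adjusted p = 0.0268). Here the singles also separated from each other, with every IL5Tg library above every mdx library.

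Pdk1, the kinase that shuts pyruvate out of the mitochondrial citric acid cycle by inhibiting pyruvate dehydrogenase, was at 30.1, 31 and 23.5 CPM in mdx_IL5Tg, 8.22, 7.63 and 8.2 in IL5Tg and 11.4, 12.4 and 10.8 in mdx. It exceeded IL5Tg by 1.82 ± 0.17 and mdx by 1.29 ± 0.16 (edgeR adjusted p = 0.00879), and it is among the few genes whose nearer single was mdx. Phosphoglucomutase, listed as Pgm2 in the table and as Pgm1 in GENCODE release M21, was at 41.9, 35.1 and 21 CPM in mdx_IL5Tg, 11, 7.63 and 8.83 in IL5Tg and 7.96, 9.57 and 9.36 in mdx (1.83 ± 0.25 and 1.87 ± 0.25; adjusted p = 0.0162). Its combined libraries spread widely, with S3 lowest, and did not overlap the others. Pgam1, phosphoglycerate mutase, was 1.14 and 1.57 above the singles (adjusted p = 0.0268), and Bsg, the chaperone of lactate transporters, 1.15 and 1.18 (adjusted p = 0.0162).

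The other 12 higher members of the list did not pass as above both. Pfkl, a phosphofructokinase subunit, came closest: it was 1.65 above IL5Tg and 1.07 above mdx, at 208 ± 33.8 CPM in mdx_IL5Tg, 66.3 ± 7.98 in IL5Tg and 98.9 ± 24.3 in mdx (SD), with an edgeR adjusted p of 0.0511. Aldoa, aldolase, was 1.01 and 0.89 above the singles (0.113), Hk2, hexokinase, 0.56 and 0.96 (0.134), the lactate exporter Slc16a3 0.78 and 0.74 (0.126), and Pkm, pyruvate kinase, 0.82 and 0.74 (0.122; adjusted p of lying above both in each case). The glucose transporter Slc2a1 had differences of 0.58 and 0.89. Gpi1, glucose-6-phosphate isomerase, differed from mdx by 1.46 and from IL5Tg by 0.28. The 2 members that did not pass the average contrast were Ankrd37, a low transcript at 1.72 ± 0.364 CPM in mdx_IL5Tg (SD; 0.76, adjusted p = 0.196), and Ndrg1, a stress-response gene, whose mean was below both singles (-0.41, adjusted p = 0.21).

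The count of 22 higher members stayed within 1.5 times of that value in every alternative run. The call of lying above both was less steady for the 9 glycolytic genes. Leaving out mdx_IL5Tg S1 left 0 of them (edgeR adjusted p between 0.0664 and 0.176), and 2 passed without mdx_IL5Tg S2 or IL5Tg S9 and 1 without IL5Tg S7 or S8 or with library totals. Across all alternatives run, the differences of the 9 genes from the nearer single stayed between 0.69 (with library totals) and 2.13 (without mdx_IL5Tg S3). Several of these genes (Gapdh, Tpi1, Pgk1, Eno1, Ldha and Pgam1) have processed pseudogenes that share sequence with them, and how reads were split among the copies rests on the authors' estimation.

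**Figure D2:**
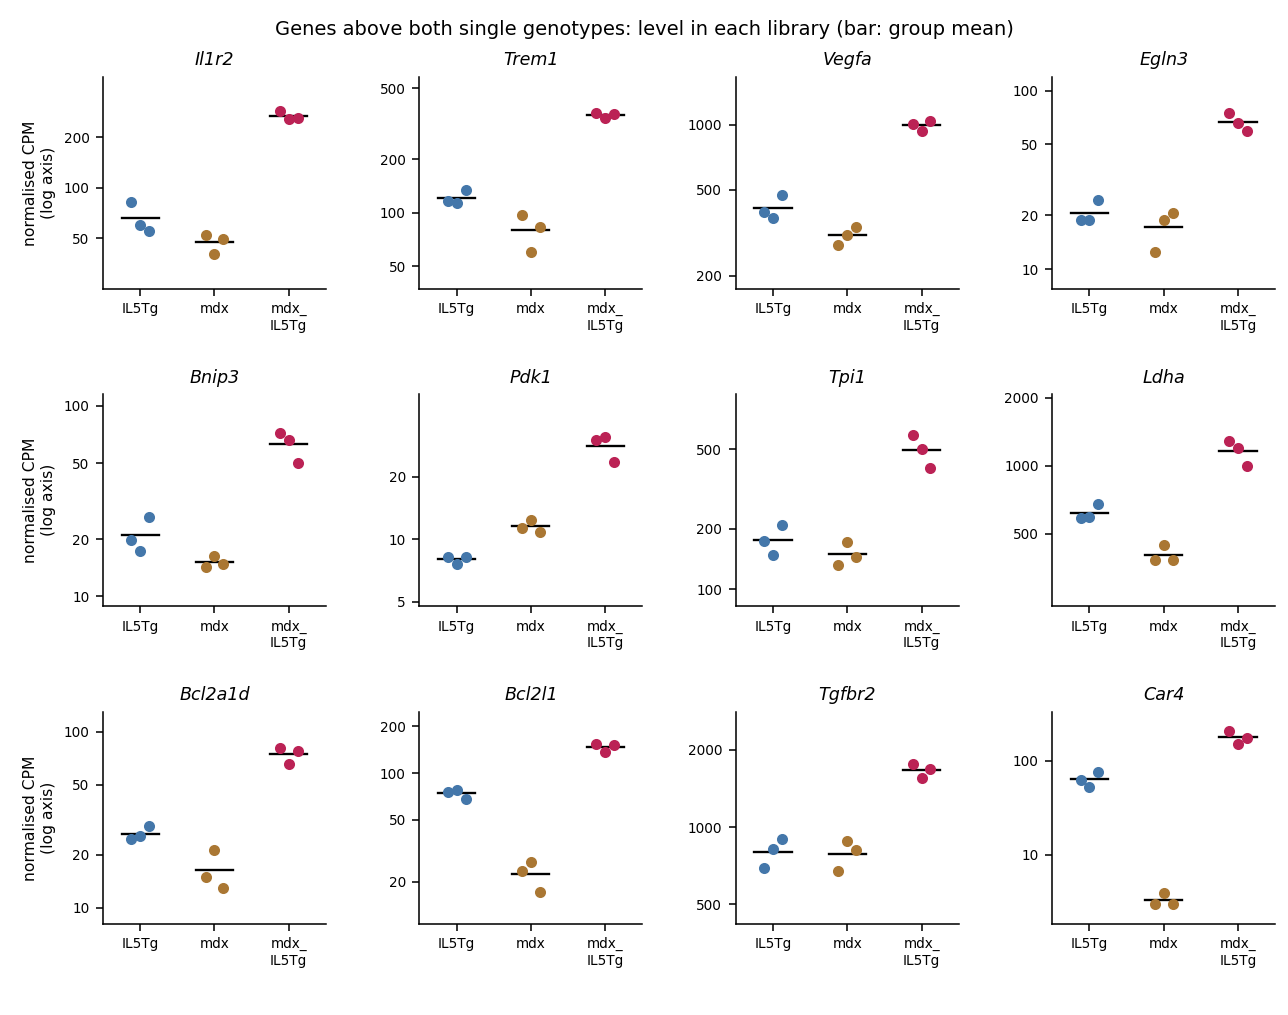
Normalised CPM of 12 genes above both singles in each of the 9 libraries (log axis, 1 point a library, bar at the group mean). In each panel the 3 mdx_IL5Tg points lie above all 6 others; Bcl2l1 and Car4 are graded, with mdx lowest, while the singles lie close together for Tgfbr2 and Tpi1.

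The 7 genes above both singles that were placed with the oxygen response, after their values were seen, are Vegfa, Egln3, Egln1, Bnip3, Fam162a, Car4 and Zfp395. Vegfa, Egln3 and Bnip3 were on the list of glycolysis and the hypoxia response, and Egln1, Fam162a, Car4 and Zfp395 were not. Vegfa (chr17:46016993-46032369), the angiogenic growth factor, was at 1014, 936 and 1042 CPM in mdx_IL5Tg S1, S2 and S3, 395, 370.2 and 474 in IL5Tg and 279, 308 and 338 in mdx. It was higher than IL5Tg by 1.27 ± 0.14 and than mdx by 1.69 ± 0.14 (edgeR adjusted p = 0.00797), and the lowest combined library was above every library of the singles. Egln3 (chr12:54178981-54203860), an oxygen-dependent hydroxylase, was at 74.4, 65.6 and 59.1 CPM in mdx_IL5Tg, 18.9, 18.8 and 24.3 in IL5Tg and 12.4, 18.8 and 20.6 in mdx (1.68 ± 0.2 and 1.94 ± 0.2; adjusted p = 0.0087). Egln1, its paralog and the main oxygen sensor, was at 74.3, 61.5 and 55.3 CPM in mdx_IL5Tg, 14, 16.5 and 20.9 in IL5Tg and 26, 28.7 and 28.2 in mdx (1.89 ± 0.18 and 1.21 ± 0.17; adjusted p = 0.018). The hydroxylases differed in their nearer single, which was IL5Tg for Egln3 and mdx for Egln1.

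Bnip3, a mitophagy receptor of the outer mitochondrial membrane, was at 71.7, 66.3 and 50.2 CPM in mdx_IL5Tg, 19.7, 17.3 and 26.1 in IL5Tg and 14.2, 16.2 and 14.9 in mdx (1.58 ± 0.19 and 2.06 ± 0.19; edgeR adjusted p = 0.0087). Fam162a, a mitochondrial protein linked to hypoxic cell death, was at 19.6, 19.5 and 13.2 CPM in mdx_IL5Tg, 3.74, 3.28 and 5.11 in IL5Tg and 4.67, 6.59 and 5.18 in mdx (2.11 ± 0.25 and 1.67 ± 0.25; adjusted p = 0.0197). Car4, a membrane-bound carbonic anhydrase, was at 207, 152 and 177 CPM in mdx_IL5Tg, 62.8, 53.3 and 76.2 in IL5Tg and 2.95, 3.95 and 2.99 in mdx. The 3 groups did not overlap, and the combined genotype was 5.77 above mdx and 1.48 above IL5Tg (adjusted p = 0.0087). Zfp395, a zinc finger gene, was 1.06 and 1.81 above the singles (adjusted p = 0.0268). When mdx_IL5Tg S1 was left out 0 of the 7 genes passed (edgeR adjusted p between 0.0636 and 0.139); without IL5Tg S8 Vegfa alone passed, and without IL5Tg S7 Vegfa and Egln1. With library totals Vegfa, Egln3, Bnip3 and Car4 passed.

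Promoter sequence is given for 5 of these genes to show where the core letters of the hypoxia response element, ACGTG and the related GCGTG, stand in them. They are the 5 with the smallest p among members of the list above both singles whose window overlaps no annotated exon (8 of 10 windows). Each window holds the 250 bases before the first start listed by RefSeq (GRCm38.p6), 5′ to 3′ on the gene's strand, and capitals mark ACGTG or GCGTG on either strand (CACGT and CACGC when read on the printed strand; CACGTG would be counted on each strand). They lie at chr17:46032378-46032627 (minus strand), chr12:54203875-54204124 (minus), chr2:71872974-71873223 (plus), chrX:106186850-106187099 (plus) and chr4:150236458-150236707 (plus).
Vegfa: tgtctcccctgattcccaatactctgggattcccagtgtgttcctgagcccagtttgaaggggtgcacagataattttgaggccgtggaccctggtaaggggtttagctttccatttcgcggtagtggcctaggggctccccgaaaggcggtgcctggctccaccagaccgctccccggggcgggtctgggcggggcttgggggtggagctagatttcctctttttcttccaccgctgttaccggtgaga
Egln3: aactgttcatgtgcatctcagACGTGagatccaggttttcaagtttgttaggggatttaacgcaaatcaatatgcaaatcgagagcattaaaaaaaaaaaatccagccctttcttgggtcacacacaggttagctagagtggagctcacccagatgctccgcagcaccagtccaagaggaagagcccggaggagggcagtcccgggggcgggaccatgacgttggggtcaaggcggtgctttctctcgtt
Pdk1: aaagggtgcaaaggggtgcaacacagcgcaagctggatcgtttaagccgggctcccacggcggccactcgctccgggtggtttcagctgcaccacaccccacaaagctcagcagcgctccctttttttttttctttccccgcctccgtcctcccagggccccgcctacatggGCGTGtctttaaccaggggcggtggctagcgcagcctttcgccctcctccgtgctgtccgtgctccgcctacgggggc
Pgk1: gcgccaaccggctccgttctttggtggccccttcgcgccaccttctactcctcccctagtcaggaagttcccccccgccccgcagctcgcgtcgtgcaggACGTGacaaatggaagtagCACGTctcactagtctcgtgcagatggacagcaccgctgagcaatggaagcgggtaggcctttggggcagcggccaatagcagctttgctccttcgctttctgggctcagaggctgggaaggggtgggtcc
Eno1: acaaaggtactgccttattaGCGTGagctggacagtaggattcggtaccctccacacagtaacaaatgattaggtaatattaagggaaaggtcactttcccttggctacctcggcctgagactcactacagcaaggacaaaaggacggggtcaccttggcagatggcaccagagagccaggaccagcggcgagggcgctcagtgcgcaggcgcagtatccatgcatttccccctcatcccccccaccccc
ACGTG occurs 2 times in the Pgk1 window, 1 time in that of Egln3 and 0 times in the others, and GCGTG 1 time each in Pdk1 and Eno1. The Vegfa window holds neither, which says only that these letters are not in these 250 bases.

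Windows were found for 38 of the 49 genes above both, and not for 11. ACGTG stood in the first window of 10 of the 38 (26.3%) and of 2293 of 10790 tested genes with a window (21.3%); in the glycolysis and hypoxia list it stood in 11 of 22 (50%). ACGTG or GCGTG stood in 63.2% of windows of genes above both, 72.7% of the list and 55.3% of genes tested. Mean GC content of these windows was 60.3%, 62.2% and 59.7%. Where a gene had several listed starts and any of its windows was allowed, ACGTG stood in 36.8% of genes above both, 63.6% of the list and 24.4% of genes tested, and either motif in 73.7%, 90.9% and 59.7%. These shares are a description, and the list was assembled from known hypoxia genes.

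Of the 12 genes for surface and secreted immune proteins, 9 encode receptors and the others are Adam19, Mmp25 and Cfp. Il1r2 (chr1:40074079-40125231), the decoy receptor that binds interleukin-1 without signalling, was at 286, 258 and 261 CPM in mdx_IL5Tg S1, S2 and S3, 82.5, 60.2 and 55.4 in IL5Tg and 52.2, 40.00 and 49.4 in mdx. The differences were 2.02 ± 0.17 from IL5Tg and 2.51 ± 0.18 from mdx (edgeR adjusted p = 0.00256), a 4.06-fold distance from the nearer single and the smallest p of the 49. Every combined library was far above every library of the singles. Il1r2 was the only gene that passed in all 9 fits that left out a library. Trem1 (chr17:48232768-48246924), a receptor that amplifies inflammatory signals through the adaptor Tyrobp, was at 362, 342 and 361 CPM in mdx_IL5Tg, 117, 114 and 134 in IL5Tg and 97.9, 60.04 and 83.2 in mdx (1.55 ± 0.17 and 2.14 ± 0.18; adjusted p = 0.00797). The combined libraries were within a narrow band well above the rest.

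Tgfbr2 and Il10ra, for receptors of cytokines that restrain inflammation, were among them, as was Ifngr1. Tgfbr2, the type II receptor of TGF-beta, was at 1754, 1551 and 1683 CPM in mdx_IL5Tg, 690.3, 821 and 899 in IL5Tg and 673, 881 and 812 in mdx (1.05 ± 0.15 and 1.08 ± 0.15; edgeR adjusted p = 0.0188). The singles overlapped each other and the combined genotype lay above both. Il10ra, the ligand-binding chain of the interleukin-10 receptor, was at 250.5, 229.7 and 193 CPM in mdx_IL5Tg, 106, 101 and 114 in IL5Tg and 77, 89.8 and 76.9 in mdx (1.07 and 1.47; adjusted p = 0.00879). Ifngr1, a chain of the interferon-gamma receptor, was 0.9 and 1.26 above the singles (0.0268). Of 20 interferon-response genes 0 passed the average contrast in either direction by edgeR, against 7.37% higher and 3.34% lower of all genes tested. At an unadjusted p, 0 were higher and 7 lower. DESeq2 gave 4 lower, limma voom 2 lower, and the fit without mdx_IL5Tg S2 5 lower. The median difference of the interferon-response list was -0.47 from the average, 0.04 from IL5Tg and -1.15 from mdx.

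Chemoattractant and lipid receptors followed. C5ar1, the receptor of complement fragment C5a, was at 242, 233 and 237 CPM in mdx_IL5Tg, 107, 141 and 144 in IL5Tg and 134, 115 and 125 in mdx (0.86 ± 0.14 and 0.93 ± 0.14; edgeR adjusted p = 0.0268). Gpr35, a G protein-coupled receptor of leukocytes, was at 301, 287 and 388 CPM in mdx_IL5Tg, 163, 163 and 146 in IL5Tg and 165, 134 and 169.9 in mdx (1.05 and 1.06; 0.0188), and Gpr55, a receptor of lysophosphatidylinositol, at 157, 139 and 143 CPM in mdx_IL5Tg, 60.2, 70.6 and 75.2 in IL5Tg and 54.9, 83.2 and 71.4 in mdx (1.09 and 1.07; 0.0216). In these 3 genes the singles overlapped, so that the combined genotype alone stood apart. Fzd7, a Wnt receptor, was 1.32 and 1.64 above the singles (adjusted p = 0.0134). Adam19, a membrane metalloprotease, was at 411, 407 and 387 CPM in mdx_IL5Tg, 186, 167 and 207 in IL5Tg and 102, 91.2 and 98 in mdx (0.00797), a graded order of mdx below IL5Tg below mdx_IL5Tg. Mmp25, a membrane-anchored metalloprotease of leukocytes, was 0.93 and 1.2 above the singles (0.0216), and Cfp, properdin, the positive regulator of the alternative complement pathway, 0.93 and 1.67 (0.0428).

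Several of these genes (Trem1, Il1r2, Mmp25 and C5ar1) are also expressed by neutrophils, so neutrophil markers are given beside them. Of 15 neutrophil markers tested 2 were higher than the average of the singles, Cxcr2 (2.35) and Retnlg (0.68), and 0 lower. The shares of all genes tested were 7.37% and 3.34%. By DESeq2 4 were higher and 1 lower. Fits that left out a library gave 1 to 4 higher, with 4 without mdx_IL5Tg S3 or mdx S5. For 8 of 15 the mean lay below both singles, against 38.1% of all genes tested, and the list's median was -1.39. S100a8 was at 2.91 ± 1.26 CPM in mdx_IL5Tg, 29 ± 38.9 in IL5Tg and 10.5 ± 15.6 in mdx (SD), and Ly6g at 0.585 ± 0.284 CPM in mdx_IL5Tg, 1.2 ± 0.798 in IL5Tg and 0.113 ± 0.195 in mdx. The summed level of the list was 1462 to 2038 CPM in mdx_IL5Tg, 1116 to 2099 in IL5Tg and 1296 to 2131 in mdx, and Stfa2 alone was at 0 in every library. Retnlg made up most of that sum in mdx_IL5Tg (1175, 1045 and 828 CPM) and mdx (880, 1571 and 952). In IL5Tg Retnlg was at 396, 311 and 362 CPM. The summed macrophage list was 2670 to 2845 CPM in mdx_IL5Tg, 1652 to 2026 in IL5Tg and 2053 to 3047 in mdx. Adgre1 made up most of that sum in mdx_IL5Tg (2238, 2056 and 2439 CPM) and IL5Tg (1389, 1641 and 1749). In mdx Adgre1 was at 1190, 1330 and 1082 CPM. The same gene is also on the list of eosinophil markers. The macrophage list's median was 1.298 from IL5Tg and -2.07 from mdx. Against mdx the sums thus overlapped while the median was lower. Of the 18 macrophage genes tested, 15 had means between the singles, against 34.9% of all genes tested. In RNA of sorted populations, fewer cells of a type and less RNA per cell cannot be told apart. Among the 12 receptor and surface genes, 1 (Il1r2) passed without mdx_IL5Tg S1, and the other 11 then had edgeR adjusted p between 0.0607 and 0.236. Adam19, Il1r2 and Trem1 passed without IL5Tg S7 or S8, and 5 of the 12 with library totals. The part of neutrophils or macrophages in these results was not tested.

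Of 17 BCL2 family genes tested, 3 anti-apoptotic ones passed as above both singles. Bcl2l1 (chr2:152780668-152831728), which encodes BCL-XL and is a target of STAT5, was at 154, 136 and 152 CPM in mdx_IL5Tg S1, S2 and S3, 76, 78.3 and 68.1 in IL5Tg and 23.7, 26.7 and 17.3 in mdx. It was 0.99 ± 0.16 above IL5Tg and 2.71 ± 0.17 above mdx (edgeR adjusted p = 0.0268), in 3 steps without overlap. Bcl2a1d, a copy of the A1 survival gene, was at 80.8, 65.4 and 77.8 CPM in mdx_IL5Tg, 24.4, 25.4 and 29.3 in IL5Tg and 15, 21.4 and 13 in mdx (1.5 ± 0.19 and 2.18 ± 0.19; adjusted p = 0.00879), and Bcl2a1b at 130.0, 107 and 118 CPM in mdx_IL5Tg, 55.6, 55.6 and 56.3 in IL5Tg and 54.5, 58 and 48.5 in mdx (1.09 ± 0.12 and 1.14 ± 0.12; 0.00797). Bcl2a1a was 0.89 and 2.05 above them and just missed (0.0515). The A1 copies are near-identical, and the split of reads among them is uncertain. Over the 17 genes, 6 were higher than the average of the singles and 0 lower, with a median of 0.22. The shares of all genes tested were 7.37% higher, 3.34% lower and 0.308% above both. The 6 also included the pro-apoptotic Bak1 (0.61, adjusted p = 0.016) and Pmaip1 (0.64, adjusted p = 0.0285). Mcl1 (0.22, adjusted p = 0.423) and Bcl2l11 (0.36, adjusted p = 0.154) did not pass.

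Along the interleukin-5 pathway, the receptor chain Il5ra had overlapping ranges of mean and spread in the groups (58.1 ± 9.65 CPM in mdx_IL5Tg, 60.2 ± 5.43 in IL5Tg and 61.1 ± 10.7 in mdx, SD; -0.06, edgeR adjusted p = 0.793). Feedback inhibitors were higher than the average of the singles: Socs2 by 1.58 (adjusted p = 1.26e-05), which is 2.77 above mdx and 0.38 above IL5Tg, and Cish by 0.72 (adjusted p = 0.00386), 0.63 and 0.81 above the singles. Osm, oncostatin M, was 1.47 above mdx and 0.16 above IL5Tg. Of 18 genes of the interleukin-5 and STAT5 list, 6 were higher, 0 lower and 1 (Bcl2l1) above both. The shares of all genes tested were 7.37%, 3.34% and 0.308%, and the list's median was 0.24. Il5, the gene the transgene carries, was at 664, 724 and 696 CPM in mdx_IL5Tg, 523, 317 and 460.5 in IL5Tg and 0.335, 0.402 and 0.265 in mdx. Every mdx_IL5Tg library exceeded every IL5Tg library, by 0.68 ± 0.18 (adjusted p = 0.0452 for that pair), and Il5 did not pass as above both (0.173). With mdx_IL5Tg S1 left out 0 of the 3 anti-apoptotic genes were above both (edgeR adjusted p between 0.0636 and 0.14). Without IL5Tg S7 or S8, Bcl2a1b alone was. Bcl2l1 passed in 3 of the 9 fits that left out a library; it also missed without mdx_IL5Tg S2 (0.0673), mdx_IL5Tg S3 (0.0547) and IL5Tg S9 (0.123), and with library totals (0.0945).

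The other 18 genes above both have mixed roles. Upp1 (chr11:9118103-9136170), uridine phosphorylase, was at 205, 186 and 170.0 CPM in mdx_IL5Tg, 110.2, 105 and 105 in IL5Tg and 9.61, 7.66 and 9.33 in mdx. The combined genotype was 4.39 ± 0.15 above mdx and 0.81 ± 0.13 above IL5Tg (edgeR adjusted p = 0.0268), in 3 steps without overlap. Tmem119, a membrane protein best known as a microglial marker, was at 85.7, 75.9 and 60.3 CPM in mdx_IL5Tg, 24.2, 25.3 and 29.6 in IL5Tg and 9.71, 8.33 and 6.58 in mdx (1.49 and 3.17; 0.00879). Lpin1, a phosphatidate phosphatase of lipid synthesis, was 0.73 and 2.12 above the singles (0.0444), and Tk2, the mitochondrial thymidine kinase, 0.93 and 1.76 (0.0413). Among transcription regulators, Etv5, an ETS factor, was at 31.2, 24.9 and 29.1 CPM in mdx_IL5Tg, 11, 12.6 and 13 in IL5Tg and 8.52, 5.82 and 8.37 in mdx (1.22 and 1.9; 0.0241), and Jdp2, a partner of Jun, was 1.02 and 0.75 above the singles (0.0449). Tpd52, Tes, Anp32a, Nudt4, Fam102a, Plekha2, Gpaa1 and Clptm1l were 0.76 to 1.38 above each single.

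Transcripts that do not code for protein were 3 of the 18. RP23-103K12.3 is an intronic RNA on the same strand as Tmem51 and inside it (chr4:142042912-142048578). Its counts were 67, 63 and 62 in mdx_IL5Tg, 0, 2 and 1 in IL5Tg and 0, 0 and 1 in mdx. Per depth it was 44.2 times the IL5Tg level (exact 95% interval 14.9 to 216) and 178 times the mdx level (31.5 to 7059), where the intervals cover counting error only. Tmem51 itself, a transmembrane protein, was at 21.5, 23 and 18.2 CPM in mdx_IL5Tg, 5.73, 4.28 and 5.29 in IL5Tg and 9.0, 8.9 and 8.58 in mdx (2.03 ± 0.18 and 1.24 ± 0.18; edgeR adjusted p = 0.018). As the RNA lies in an intron of Tmem51, unspliced Tmem51 reads and reads of a separate transcript cannot be told apart. Mirt2, an antisense long noncoding RNA, was at 25.4, 24.7 and 27.3 CPM in mdx_IL5Tg, 12.4, 11.8 and 12.4 in IL5Tg and 10.7, 10.1 and 11.7 in mdx (0.0134), and the strand setting of the counting is not given in the sources used here. RP24-364O14.1 is a processed pseudogene (Gm4735 in release M21), 1.25 and 1.4 above the singles (0.0216), whose reads may be shared with its parent gene. Of the 18, 0 passed without mdx_IL5Tg S1 (edgeR adjusted p between 0.0636 and 0.221), and 1 passed without IL5Tg S7 or S8 (Tmem51).

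Near the threshold, the 3 genes just inside were Lpin1, Jdp2 and Clptm1l, with differences of 0.73, 0.75 and 0.77 from the nearer single (edgeR adjusted p = 0.0444, 0.0449 and 0.0456). The 3 just outside were Slc24a3, Pfkl and Ppp1r3b, with 0.99, 1.07 and 0.92 (adjusted p = 0.0502, 0.0511 and 0.0511). The genes outside thus stood as far from the nearer single as many inside.

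Other immune lists had members higher than the average of the singles, few of them above both. The shares of all genes tested were 7.37% higher, 3.34% lower and 0.308% above both. Of 24 NF-kB and inflammatory cytokine genes 9 were higher, 0 lower and 0 above both (5 above both at an unadjusted p, 1 by DESeq2, by limma voom and without mdx S4 or mdx S5), with a median of 0.74 from IL5Tg and -0.15 from mdx. Il1rn, the interleukin-1 receptor antagonist, came closest at 1239, 1369 and 1449 CPM in mdx_IL5Tg, 352, 418 and 349 in IL5Tg and 813, 489 and 741 in mdx (1.86 ± 0.19 and 0.99 ± 0.19; edgeR adjusted p = 0.0628 for lying above both). Together with the decoy Il1r2, it is a natural brake on interleukin-1; of the cytokines themselves, Il1a was 1.91 above IL5Tg and 0.27 above mdx, and Il1b was between the singles (1.51 and -0.53). Cxcl2, a chemokine that attracts neutrophils, was at 601, 539 and 523 CPM in mdx_IL5Tg, 212, 124 and 241 in IL5Tg and 342, 218 and 443 in mdx (0.371). Higher genes of this list numbered 4 without mdx_IL5Tg S1, 2 with library totals and 14 with voom quality weights.

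Of 18 type 2 and repair mediators 11 were higher, 0 lower and 0 above both by edgeR, against 7.37%, 3.34% and 0.308% of all genes tested. Above both were 3 by DESeq2, 0 by limma voom, 1 without mdx S5 and 4 at an unadjusted p. The list's medians were 0.57 from IL5Tg and 0.42 from mdx. Retnla, a resistin-like protein of type 2 responses (spelled Retnia in the table), was at 1047, 849.9 and 1553 CPM in mdx_IL5Tg, 339.5, 533 and 656 in IL5Tg and 91.1, 137 and 100.3 in mdx (1.17 ± 0.28 and 3.39 ± 0.3; edgeR adjusted p = 0.126 for lying above both). Its combined libraries were the highest and also the most spread. Tgm2, a transglutaminase, was 1.87 above IL5Tg and 0.67 above mdx (0.123), and Il4ra, the interleukin-4 receptor chain, 0.65 and 1.16 (0.102). Thbs1, thrombospondin, differed from IL5Tg by 1.16 and from mdx by 0.17. The cytokines of type 2 immunity Il4 and Il13 were 0.59 and 1.11 above the average (edgeR adjusted p = 0.0314 and 0.0115). Arg1 did not pass the average contrast (1.55, adjusted p = 0.0592).

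Of 12 eicosanoid synthesis genes 6 were higher, 0 lower and 0 above both by edgeR, against 7.37%, 3.34% and 0.308% of all genes tested. Above both were 4 at an unadjusted p, 2 by DESeq2, 0 by limma voom and 1 without mdx S5. Ptgs1, cyclooxygenase 1, was at 120.1, 107 and 107 CPM in mdx_IL5Tg, 68.3, 71 and 84.1 in IL5Tg and 14.7, 12.8 and 16.3 in mdx (0.58 ± 0.14 and 2.93 ± 0.15; edgeR adjusted p = 0.126 for lying above both), and Alox5, 5-lipoxygenase, at 418, 326 and 339 CPM in mdx_IL5Tg, 241, 206 and 254 in IL5Tg and 135, 170.3 and 163 in mdx (0.63 ± 0.15 and 1.21 ± 0.15; 0.126). Neither overlapped the singles. Of 21 adhesion and chemoattractant receptor genes 11 were higher and 1 (C5ar1) above both; the integrin Itgax, which encodes CD11c, was at 259, 245 and 189.8 CPM in mdx_IL5Tg, 41.3, 55.6 and 44.1 in IL5Tg and 138, 102 and 122 in mdx and just missed (0.0538), and CD11c on the surface was a negative gate of the sort. That list's higher count was 6 without mdx_IL5Tg S1 and with library totals, and C5ar1 was not above both without mdx_IL5Tg S1 or S2 or any single IL5Tg library. Of 19 inhibitory and Fc receptor genes 9 were higher, among them Cd274, the checkpoint ligand PD-L1 (0.51 and 2.05), and Cd101 (2.89 and 0.43). Of 8 Trem receptors and adaptors 4 were higher and 1 (Trem1) above both (1 and 0 without mdx_IL5Tg S1). Trem2, named in the series title, lay between the singles at 2.09, 3.32 and 0.94 CPM in mdx_IL5Tg, 0.16, 0.325 and 0.0746 in IL5Tg and 15.4, 12.2 and 5.69 in mdx.

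Lists with fewer called members were nuclear genes of the respiratory chain, with 2 of 20 higher and a median of 0.25, the NADPH oxidase and antioxidant list, with 2 of 20 higher and a median of 0.28, and the unfolded protein and stress list, with 4 of 20 higher and a median of 0.27. Activity-induced transcription factors had 4 of 20 higher (median 0.25), lysosome genes 6 of 21 (0.23), cholesterol and fatty acid synthesis 2 of 20 (0.10), and translation 2 higher and 1 lower of 20 (-0.10). The share of higher genes among all tested was 7.37%. Leaving out mdx S5 raised the higher members of the respiratory chain, NADPH and unfolded protein lists to 9, 9 and 7, and leaving out mdx_IL5Tg S1 lowered them to 1, 1 and 1. Activity-induced factors numbered 8 without mdx S5 and 2 without mdx_IL5Tg S1, and lysosome genes 1 without mdx_IL5Tg S1 or with library totals. Cholesterol genes numbered 4 without mdx_IL5Tg S3 or mdx S5. Without mdx_IL5Tg S1 the translation list had 0 higher and 0 lower members.

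**Figure D3:**
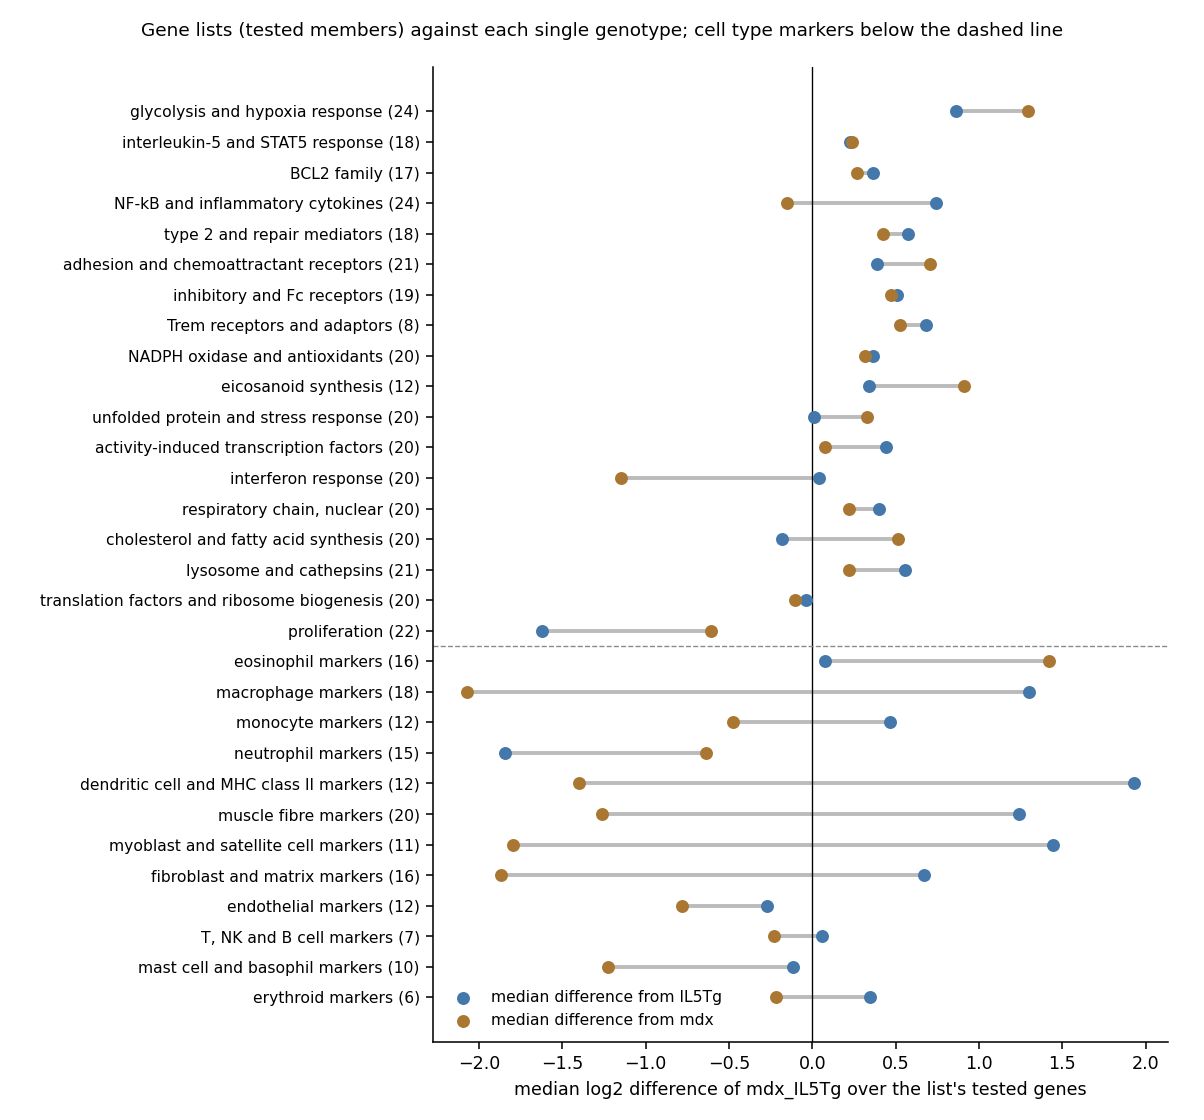
For each gene list (number of tested members in brackets), the median log2 difference of mdx_IL5Tg from IL5Tg (blue) and from mdx (brown); cell type markers are below the dashed line. Both medians lie well to the right of 0 for glycolysis and the hypoxia response (0.86 and 1.29), both lie left for proliferation (-1.62 and -0.61), and they straddle 0 for macrophage, class II, muscle fibre, myoblast and fibroblast markers.

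A smaller set of genes passed the average contrast while lying between the singles, at the level of 1 of them. Col22a1 (chr15:71795795-72034227), a collagen of tissue junctions, was at 177, 163 and 161 CPM in mdx_IL5Tg, 1.38, 1.3 and 1.6 in IL5Tg and 124, 265 and 147 in mdx. The combined genotype overlapped mdx (-0.1 ± 0.23) and was 6.87 ± 0.32 above IL5Tg. The opposite arrangement, at or somewhat under the IL5Tg level and far above mdx, was seen for the other 4 named genes. Crhbp, which binds corticotropin-releasing hormone, was at 18.5, 18.8 and 22 CPM in mdx_IL5Tg, 26.5, 34.7 and 29.3 in IL5Tg and 0.167, 0.167 and 0.0482 in mdx (-0.61 ± 0.22 and 7.25 ± 0.32). Cyp11a1, the first enzyme of steroid synthesis, was at 50.6, 65.2 and 52.2 CPM in mdx_IL5Tg, 89.5, 94.8 and 76.9 in IL5Tg and 0.921, 0.536 and 0.82 in mdx (-0.64 ± 0.17 and 6.17 ± 0.22). In both, the combined libraries were lower than the IL5Tg ones without overlap. Adra2a, an adrenergic receptor, and Abca13, a lipid transporter, were -0.25 ± 0.23 and -0.9 ± 0.25 from IL5Tg and 3.3 ± 0.26 and 3.89 ± 0.28 from mdx. The 5 passed the average contrast with edgeR adjusted p from 5.44e-06 to 0.00189, in all alternatives run.

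Among the 16 lower genes between the singles, the 5 named ones were near the IL5Tg level and well under mdx. Sel1l3 was at 2.19, 1.61 and 2.3 CPM in mdx_IL5Tg, 1.22, 1.43 and 1.27 in IL5Tg and 21.8, 24.2 and 23.1 in mdx (0.64 ± 0.21 and -3.5 ± 0.21). Mitf, a transcription factor of melanocytes, mast cells and macrophages, was at 2.94, 3.35 and 2.87 CPM in mdx_IL5Tg, 2.34, 2.73 and 3.32 in IL5Tg and 17.4, 15.8 and 15.9 in mdx (0.13 ± 0.2 and -2.42 ± 0.2). Sntb1, a syntrophin of the dystrophin complex, was 0.36 ± 0.18 and -2.51 ± 0.18 from the singles, Pou2f2 0.11 ± 0.26 and -2.16 ± 0.27, and Ssc5d 0.23 ± 0.36 and -2.49 ± 0.37. The call of Ssc5d (average contrast, edgeR adjusted p = 0.0497) ended in 10 of 20 alternatives, and that of Pou2f2 without mdx_IL5Tg S1, mdx_IL5Tg S2 or mdx S4. Markers of other cells are given beside these genes. Summed class II and dendritic markers were at 225 to 391 CPM in mdx_IL5Tg, 66.0 to 71.2 in IL5Tg and 306 to 401 in mdx. By this sum the combined genotype overlapped mdx and lay above IL5Tg. Itgax made up most of it in mdx_IL5Tg (259, 245 and 190 CPM) and IL5Tg (41.3, 55.6 and 44.1), and was at 138, 102 and 122 in mdx. The list's median was 1.93 from IL5Tg and -1.40 from mdx. Of the 12 tested, 9 had means between the singles, against 34.9% of all genes tested. Of 20 muscle fibre markers 19 had means between the singles, against 34.9% of all genes tested. By the average contrast 1 was higher (Neb) and 0 lower, against 7.37% and 3.34% of all genes tested. DESeq2 gave 2 lower and limma voom 1, and at an unadjusted p 2 were higher and 2 lower. The summed level of the muscle fibre markers was 396 to 697 CPM in mdx_IL5Tg, 341 to 703 in IL5Tg and 174 to 307 in mdx. It overlapped IL5Tg and lay above mdx. Neb made up most of that sum in mdx_IL5Tg (344, 412 and 646 CPM) and IL5Tg (294, 664 and 473). In mdx Neb was at 78.4, 44.1 and 83.4 CPM. The list's median was 1.24 from IL5Tg and -1.26 from mdx, so against mdx the sum and the median differed in direction. The part of these cells in the between genes was not tested.

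**Figure D4:**
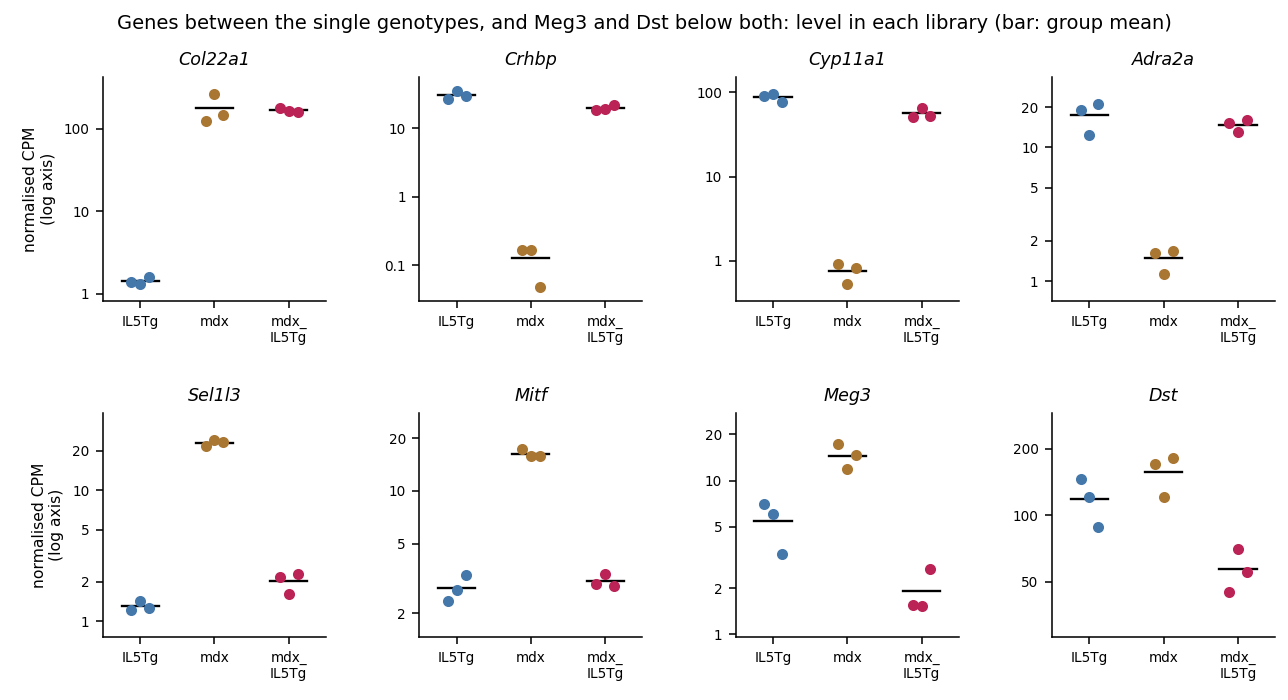
Normalised CPM in each library (log axis, 1 point a library, bar at the group mean) of 6 genes whose mdx_IL5Tg mean lies between the singles (Col22a1 to Mitf) and of Meg3 and Dst, whose mean lies below both. Col22a1 in mdx_IL5Tg overlaps mdx, while Crhbp, Cyp11a1 and Adra2a stand near or under IL5Tg and far above mdx. The 3 combined points of Meg3 and Dst lie under the 6 others, which their selection required.

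No gene passed as below both singles in edgeR or limma voom (609 at an unadjusted p, 66 by DESeq2). The genes named here were chosen after their values were seen, as those with the smallest p of lying below both within a narrower set. That set held genes at or above the median level, called lower by the average contrast, whose combined libraries all lay below the other 6. Clone, predicted and pseudogene models, small RNA genes and repeated symbols were left out of it. Meg3, a maternally expressed long noncoding RNA, was at 1.56, 1.54 and 2.66 CPM in mdx_IL5Tg, 7.04, 6.07 and 3.35 in IL5Tg and 17.3, 11.8 and 14.6 in mdx (-1.52 ± 0.32 and -2.93 ± 0.33; edgeR adjusted p = 0.101 for lying below both). Dst, which encodes the cytoskeletal linker dystonin, was at 44.8, 70.4 and 55.1 CPM in mdx_IL5Tg, 145, 121 and 88.8 in IL5Tg and 170.0, 121 and 182 in mdx (-1.06 ± 0.23 and -1.47 ± 0.23; 0.102). Tnfrsf11a, the receptor RANK, was at 7.98, 7.63 and 5.35 CPM in mdx_IL5Tg, 15.3, 10.6 and 15.7 in IL5Tg and 15.8, 15.9 and 13.9 in mdx (-0.99 and -1.12; 0.109). Zbtb20, a transcriptional repressor, was -1.05 and -1.36 from the singles (0.121). In each of these 4 the combined libraries lay below the other 6, which their selection required. Ppp1r12b, Rev1, Ktn1, Erc1, Ankrd28, Fnbp1l, Rufy3 and Prex2 had adjusted p from 0.109 to 0.126. With length offsets Dst was at -0.73 and Zbtb20 at -0.62 from the average, in place of -1.27 and -1.2.

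Most proliferation genes had lower means in the combined genotype than in either single. Of 22 tested, 21 had a mdx_IL5Tg mean below both singles, against 38.1% of all genes tested. By edgeR 2 were lower than the average (Tyms and Top2a), against 3.34% of all genes tested. None (0) were higher and 0 passed as below both. At an unadjusted p 15 were lower and 1 below both, and the list's median was -1.11. Tyms, thymidylate synthase, was at 0.81, 1.46 and 0.757 CPM in mdx_IL5Tg, 12.1, 2.99 and 4.4 in IL5Tg and 3.5, 2.78 and 3.09 in mdx (-2.16 ± 0.46 from the average, edgeR adjusted p = 0.0159). Top2a, a DNA topoisomerase, was at 12.5, 16.5 and 12 CPM in mdx_IL5Tg, 113, 24.3 and 54.7 in IL5Tg and 24.1, 15.9 and 25.1 in mdx (-1.44 ± 0.39, adjusted p = 0.0423), and mdx S5 fell within the combined range. IL5Tg S7 was the highest library for both genes. The call of Top2a ended in 10 of 20 alternatives and that of Tyms without mdx_IL5Tg S1 (adjusted p = 0.0968), and the number of lower genes was 10 with DESeq2, 12 without IL5Tg S8 and 0 without mdx_IL5Tg S1.

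Of the genes that check the labels, Il5 was 0.335, 0.402 and 0.265 CPM in mdx and 317 to 523 CPM in IL5Tg. Dmd, in which the mdx allele is a point mutation that a gene count does not read, was at 1.64, 2.22 and 2.74 CPM in mdx_IL5Tg, 6.62, 5.45 and 5.29 in IL5Tg and 6.93, 2.74 and 5.33 in mdx (-1.3 ± 0.31 from the average, edgeR adjusted p = 0.025; not past 0.05 without mdx_IL5Tg S1 or S2 or with length offsets). Siglecf, the surface marker of the sort, was at 529, 449 and 584 CPM in mdx_IL5Tg, 329.9, 336 and 394 in IL5Tg and 164, 129 and 177 in mdx; it was 1.73 ± 0.16 above mdx and 0.56 ± 0.16 above IL5Tg (0.218 for lying above both). The eosinophil chemokine receptor Ccr3 was at 1366, 1441 and 1310.3 CPM in mdx_IL5Tg, 827, 1011 and 1064 in IL5Tg and 1109, 809 and 1134 in mdx (0.47 ± 0.14, adjusted p = 0.0539), and passed in 14 of 20 alternatives. Prg2, which encodes the granule's major basic protein, was at 651, 689 and 515 CPM in mdx_IL5Tg, 6997, 1611 and 2690.5 in IL5Tg and 79.3, 96.1 and 503 in mdx, between the singles, with IL5Tg S7 far above the other libraries of its group. Over the 16 eosinophil markers 5 were higher than the average and 0 lower, against 7.37% and 3.34% of all genes tested. There were 8 higher without mdx_IL5Tg S3 or mdx S5 and by DESeq2, and 9 with voom quality weights. The summed level of the markers was 12024 to 13312 CPM in mdx_IL5Tg, 12880 to 20545 in IL5Tg and 6086 to 6677 in mdx.

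Genes above both were mostly well expressed, and their median transcript length was below that of all genes. Their longest annotated transcripts had a median of 2406 bases and a GC content of 51.5%, beside 3158 bases and 49.1% over all genes tested, and their median genomic span was 18068 bases; 98% of them were at or above the median level. Genes called lower by the average contrast were longer (5128 bases, spanning 54441 bases of genome, against 18725 for all genes tested), had a GC content of 46.7% and were at or above the median level in 43.7% of cases. When each library's trend with GC was taken out, 48 of the 49 passed among 130 genes, and with the trend with length taken out 47 passed among 57; the number of genes lower than the average was 653 and 332 under these settings and 531 without them. After thinning all libraries to equal depth 45 of the 49 passed among 49.

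The mean of mdx_IL5Tg stayed above both singles for all 49 genes in each of the 20 alternatives, while the number that passed depended on the libraries. Without mdx_IL5Tg S1 1 gene passed (Il1r2), without IL5Tg S7 8, without IL5Tg S8 7, without IL5Tg S9 16 and without mdx_IL5Tg S2 19; without mdx S5 234 genes passed, all 49 among them. In the 9 fits that left out a library, the difference from the nearer single was positive for all 49 genes and never under 0.71. Every mdx_IL5Tg library of these 49 genes lay above every single-genotype library, so the sign of the difference was largely fixed in advance. Of the 49, 21 passed in at least 5 of the 9 fits, and 6 in at least 8 (Il1r2, Trem1, Pdk1, Vegfa, Bcl2a1b and Adam19).

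**Figure D5:**
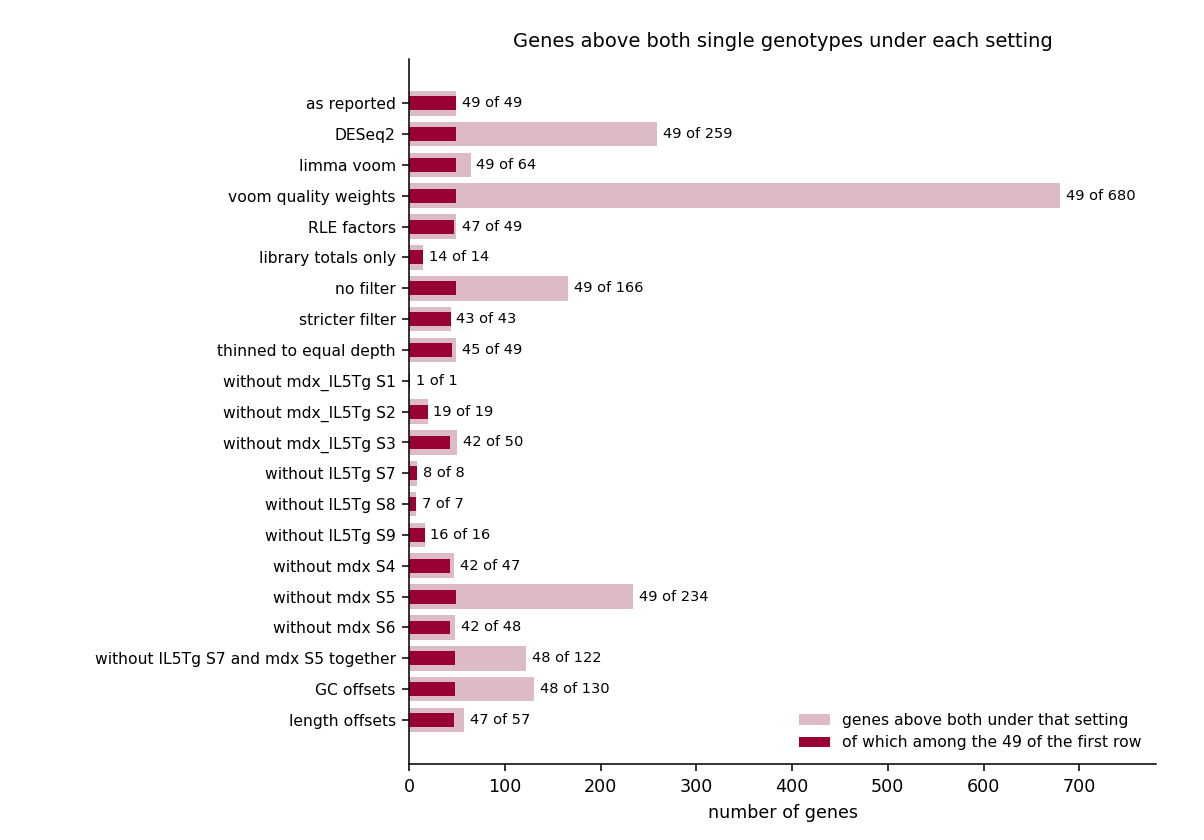
Number of genes above both singles under each setting (light bars), and how many of the 49 reported ones are among them (dark bars and labels). Leaving out mdx_IL5Tg S1 leaves 1 gene, while DESeq2, voom quality weights, no filter and leaving out mdx S5 keep all 49 and add others.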

How the data were processed

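RNA of sorted cells was measured in 9 libraries, 3 a genotype. The authors deposited a table of expected counts, 1 value a gene and library. The submitters' processing notes name RSEM 1.3.0, STAR 2.5.3, cutadapt 2.10 and limma, and build mm10. Which annotation and which strand setting were used is not given in the sources used here. Of the deposited values 6.03% were not whole, and they were rounded. No column of per-sample values was left unused (0).

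Genes were filtered with filterByExpr (minimum count 10) and fitted in 1 quasi-likelihood model of all 9 libraries with TMM factors (edgeR 4.0.16, R 4.3.3). The average contrast weights both singles equally. For lying outside both, the larger of the 2 pairwise p-values was used where both differences had the same sign. P-values were adjusted by Benjamini-Hochberg over the 15886 genes, with a threshold of 0.05. P-values measure the spread between the libraries of a group. The fits were tested on simulated data. Alternatives were DESeq2 1.42.0, limma voom 3.58.1 with and without quality weights, other scalings and filters, thinning, omitted libraries, and offsets for GC and length, the last chosen after seeing the data.

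Named by rule were the 12 largest differences above both among genes at or above the median level, the 5 largest between the singles in each direction, up to 4 members of each list by p (up to 2 where none passed), and checks of the labels; clone, predicted and pseudogene models and repeated symbols were left out of the first parts. The rest of the 49, other list members and genes below both were chosen after their values were seen. The members and gene lists were chosen with earlier results of these data known. Coordinates are those of GENCODE release M21 (GRCm38), matched by gene ID for 54079 of 54146 genes. Promoter sequences come from RefSeq (GRCm38.p6).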

Additional observations from a re-analysis of the deposited data

How the results depend on the processing

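Against 1171 genes higher, 531 lower, 49 above both, 0 below both and 83 called genes between the singles, DESeq2 gave 1307 lower, 259 above, 66 below and 149 between, and voom with quality weights 2854 higher, 2897 lower, 680 above, 250 below and 294 between. Library totals gave 454 higher, 1855 lower and 14 above. Without a filter 898 were lower, 166 above and 41 below. Without IL5Tg S7 and mdx S5 together there were 2185 higher, 1012 lower, 122 above, 5 below and 157 between. GC offsets gave 1905 higher, 130 above and 4 below, and length offsets 332 lower. Requiring each pairwise adjusted p under 0.05 gave 302 above and 75 below. Leaving out 1 library each gave 465 to 2081 higher, 15 to 1170 lower, 1 to 234 above, 0 to 25 below and 34 to 122 between; the lowest number higher, lower and above came without mdx_IL5Tg S1 and the highest without mdx S5. The cause was not tested. Among genes that passed no test, Hba-a1 (0.23 from the average) was -0.33 with quality weights, -0.068 with library totals and -0.38 to 0.64 with 1 library left out, the peroxidase gene Epx (-0.69) -0.94 to 0.55 and Prg2 (-0.58) -0.75 to 0.18, both at their highest without mdx S6. For the genes above both, 714 of 980 alternative values kept their side of the threshold and 266 lost it, and 0 changed direction. Direction was largely fixed in advance, because every combined library of these genes lay above every single-genotype library. No paired analysis was possible because the columns carry S numbers that are not tied to the replicate numbers of the titles.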
